A study of Mus musculus with 51 samples.

Results

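Stromal lines cloned from the aorta-gonad-mesonephros region (AGM) of the mouse embryo were compared with stromal lines cloned from adult mouse bone marrow (BM). The AGM side holds the lines UG26.1B6 and UG26.3B5, both from embryonic day 11 and of the strain background (CBAxC57BL/10)F1. The BM side holds BMC9 and BMC10, both from adult animals and labelled H2ts6 for strain. Within each tissue one line is labelled supportive of hematopoietic stem and progenitor cells (UG26.1B6 and BMC9) and the other less-supportive (UG26.3B5 and BMC10), so the supportive label is balanced over the comparison. Every line was hybridised in 3 arrays, which gives 6 arrays a side and 12 of the 51 arrays of the series, chosen by their line names and nothing else. All were grown to confluency on gelatin at 33 °C and had been normalized together in a set of 18 arrays. Each line is a clone, and the labels do not say whether the clones of a tissue, or the 3 arrays of a line, came from separate animals or cultures. The replication for tissue is therefore 2 lines against 2, and tissue, age and strain cannot be told apart, since they differ together in every array.

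The AGM surrounds the dorsal aorta, where the first hematopoietic stem cells of the embryo emerge from hemogenic endothelium, and its stroma derives from lateral plate and intermediate mesoderm. Adult marrow stroma belongs to the skeletal lineage and holds stem cells through secreted factors such as the chemokine Cxcl12 and the Kit ligand, and through adhesion molecules such as Vcam1. Clonal lines of both tissues are used as feeder layers. The question the lines allow is which transcripts differ between these AGM and BM lines when culture conditions are the same. Tissue, age and strain enter that difference together. For later reference, 3 lines from a second normalization set of 15 arrays were used, with no array shared: AM14-1C4 and AM30-3F4, supportive AGM lines from embryonic day 11 of the (CBAxC57BL/10)F1 background grown at 33 °C, and 14F1-1, a supportive adult BM line of the BALB/c background grown at 37 °C.

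The arrays of a line resembled each other closely, with a lowest correlation across genes of 0.991. The line means correlated at 0.994 between the AGM lines, at 0.987 between the BM lines and at 0.971 to 0.977 between tissues. No array was a copy of another, and the median log2 signal of an array was 6.82 at the lowest and 6.95 at the highest. All 4 lines had high signal for several stromal transcripts: Vim was at 13.52 to 13.63, Fn1 at 12.57 to 13.10, Col1a1 at 11.45 to 12.56 and Pdgfrb at 11.00 to 11.99 (line means, log2 signal). The leukocyte gene Ptprc was at 5.07 to 5.14, the endothelial Pecam1 at 5.79 to 5.92 and Cdh5 at 5.67 to 5.82, and the epithelial Epcam at 5.38 to 5.48, beside a first quartile of all gene line means of 5.73 and a median of 7.26. Other markers departed from this: the stromal Thy1 was under that median at 6.15 to 6.33, and the epithelial Krt8 above it at 8.06 to 8.18. The endothelial Kdr was at 6.30 and 6.90 in the AGM lines and 5.65 and 5.54 in the BM lines. None of the 14 endothelial, 13 hematopoietic or 13 neural and muscle markers measured was called different between the tissues, and Krt19 was the only call among 17 epithelial and mesothelial ones. The Y-linked genes separated BMC9 from the other 3 lines. Eif2s3y was at 8.22 in BMC9 and at 3.57 to 3.64 in the others, Kdm5d at 7.66 against 4.70 to 4.83, and Uty at 7.99 against 4.33 to 4.44, and Xist lay between 4.82 and 5.45 in all 4 lines.

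Differences are given on the log2 scale, always AGM minus BM, from means of 3 arrays per line. A gene is called separated when both lines of one tissue lay above both lines of the other, and called different when limma's moderated test over the 4 line means gave a Benjamini-Hochberg adjusted p under 0.05. Of 19938 genes, both AGM lines lay above both BM lines for 3938 (19.8%) and both BM lines above both AGM lines for 5476 (27.5%). The distance between the nearest lines of opposite tissues, the gap, reached at least 1 for 225 genes on the AGM side (1.13%) and 147 on the BM side (0.737%). The test called 371 genes (1.86%), of which 193 were higher in AGM (0.968%) and 178 higher in BM (0.893%). Called genes higher in AGM had a median difference of 1.53, with 69 of them at 2 or more, and called genes higher in BM had a median of -1.18, with 36 at -2 or beyond. In 361 of the called genes every array of one tissue lay above every array of the other (1.81% of all genes), and 364 (1.83%) also passed the array-level test in each of the 4 comparisons of an AGM line with a BM line. The genes passing in all 4 of those comparisons, with or without a call over the line means, were 1544 (7.74%), with 778 on the AGM side (3.9%) and 766 on the BM side (3.84%). Over all genes the median difference was -0.02. Values on either side of the threshold were close: Nav3 was the last gene called (adjusted p = 0.0498) and Armcx4 the first that was not (0.0501).

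With 2 lines a side each line weighs heavily on the count of calls. Without UG26.3B5, and with the lone AGM line assumed to vary like the BM lines, limma called no gene, although 2446 had an unadjusted p under 0.05. Without UG26.1B6 there were 64 calls, without BMC10 476 and without BMC9 657. An exact permutation test of 2 lines against 2 could not give a two-sided p below 0.333, so the calls rest on limma's spread shared over genes.

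The 12 genes named first per direction had the widest gap among called genes whose arrays did not overlap between tissues. Their separation is therefore fixed by this choice. On the AGM side they included Slc5a7, Dlk1, Slc6a15 and Tfpi. Slc5a7, the high-affinity choline transporter, had log2 signals of 11.02, 11.92 and 11.99 in the arrays of UG26.1B6 and 11.31, 11.86 and 11.76 in UG26.3B5. In BMC9 it was at 5.48, 5.75 and 5.69, and in BMC10 at 5.63, 5.33 and 5.47. The 6 AGM arrays were all far above the 6 BM arrays, with a difference of 6.08 (67.8-fold, SE 0.0898, adjusted p = 0.00209). Dlk1, an imprinted transmembrane protein related to the Notch ligands, had signals of 12.76, 12.96 and 13.10 in UG26.1B6, 12.29, 12.78 and 12.77 in UG26.3B5, 7.14, 7.50 and 7.43 in BMC9 and 7.39, 7.29 and 7.14 in BMC10. It was 44.1-fold higher in the AGM lines (5.46, SE 0.136, adjusted p = 0.00409). Slc6a15, a transporter of neutral amino acids, was at 9.71 to 10.15 in the 6 AGM arrays and 4.31 to 4.64 in the 6 BM arrays (43.2-fold, adjusted p = 0.00292). Tfpi, the inhibitor of the tissue factor pathway of coagulation, was at 10.67 to 10.96 in AGM arrays and 5.29 to 6.11 in BM arrays (32.6-fold, adjusted p = 0.00209). The values used here carry no detection call. The mean of the lower tissue lay under the first quartile of all genes (5.73) for Slc5a7, Slc6a15, Ak4, Ndn, B4galt6, Mlkl, Cd34, Sema3a, Ptprd, Epb41l4a and Smim20, and further on for Usp13, Calhm5, Il6, Fzd3, Cd74, Cd55, Cxcl5 and Mir140. The same held for Mir99a and Mir10a, given later without a call. For Sema6d (5.76), Sfrp1 (5.79), Tfpi (5.81) and Pdzrn3 (5.88) the lower mean lay just above that quartile. Without a detection call the lower signal was not shown to be above background for these or any other genes. The folds are therefore ratios of signals and not measured ratios of transcript. RNA from whole cultures does not tell a larger share of cells with a transcript from more transcript per cell.

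The other 8 genes of the AGM side had differences of 3.97 to 4.66. Ndn, the imprinted growth regulator necdin, was at 10.54, 10.26 and 10.23 in UG26.1B6, 9.99, 9.44 and 9.69 in UG26.3B5, 5.43, 5.49 and 5.40 in BMC9 and 5.43, 4.96 and 5.46 in BMC10 (25.3-fold, SE 0.239, adjusted p = 0.014). The AGM arrays lay apart from the BM arrays, as the choice requires. Ak4, a mitochondrial adenylate kinase, was 24.2-fold higher in AGM (adjusted p = 0.0128). Gas6, the ligand of the Tyro3, Axl and Mer receptors, was 24.1-fold higher, with BMC9 at 8.31, 7.77 and 7.01 and BMC10 at 6.24, 6.58 and 6.52 below AGM arrays of 11.53 to 11.85. Its call (adjusted p = 0.0381) was lost without the third BMC9 array (0.0625). Adcyap1r1, the receptor of the neuropeptide PACAP, was 22.9-fold higher in AGM (adjusted p = 0.0139), and Irak3, a brake on Toll-like receptor signalling, 21.4-fold higher (adjusted p = 0.00292). Slc16a3, the lactate exporter MCT4, was 20.8-fold higher (adjusted p = 0.0235), and Sema6d, a transmembrane semaphorin, 19.2-fold higher (adjusted p = 0.0206). B4galt6, which makes lactosylceramide, followed at 15.7-fold (adjusted p = 0.00818).

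Among the 12 genes of the same choice on the BM side were Mlkl, Cd34, Sema3a and Glipr1. Mlkl, the executioner of necroptosis, was at 3.91, 4.13 and 4.40 in UG26.1B6, 5.21, 5.27 and 4.80 in UG26.3B5, 9.52, 9.76 and 9.42 in BMC9 and 10.05, 10.01 and 10.07 in BMC10. The difference was -5.18 (36.3-fold higher signal in BM, SE 0.376, adjusted p = 0.0235), with the AGM signal not shown to be above background. Cd34, a sialomucin of hematopoietic progenitors, endothelium and some stromal cells, was at 5.25 to 5.91 in the AGM arrays, 10.57, 10.96 and 11.23 in BMC9 and 10.14, 10.12 and 10.29 in BMC10. Cd34 was 30.0-fold higher in BM (adjusted p = 0.0175), while Ptprc and Pecam1 differed by 0.01 each. Sema3a, a secreted semaphorin, was at 5.33 to 5.92 in AGM arrays and 9.81 to 10.25 in BM arrays (22.5-fold higher in BM, adjusted p = 0.00409). Glipr1 was 22.2-fold higher in BM, and its call (adjusted p = 0.0479) was lost without any of 4 arrays: the first of UG26.1B6 (0.0538), the second of UG26.3B5 (0.0608), the third of BMC9 (0.0548) or the second of BMC10 (0.053).

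The other 8 genes of the BM side included the proteases Mmp2 and Ctsz. Mmp2, the gelatinase that degrades type IV collagen, had signals of 7.20, 7.70 and 7.66 in UG26.1B6, 7.10, 7.45 and 7.43 in UG26.3B5, 12.33, 12.02 and 12.01 in BMC9 and 11.15, 11.21 and 10.55 in BMC10. It was 17.4-fold higher in BM (adjusted p = 0.0401), more so in BMC9 than in BMC10. Ctsz, a lysosomal carboxypeptidase, was at 6.91 to 7.36 in AGM arrays and 11.26 to 11.76 in BM arrays (20.9-fold higher in BM, adjusted p = 0.00365). Mid1, a microtubule-bound ubiquitin ligase, and Ptprd, a receptor tyrosine phosphatase, were both 16.8-fold higher in BM (adjusted p = 0.00409 and 0.00292). Epb41l4a was 19.4-fold higher in BM (adjusted p = 0.0235), Smim20 17.5-fold (0.026) and Galm, the aldose mutarotase, 11.1-fold (0.0138). Cxcl10, an interferon-induced chemokine, completed these 12 genes at 9.88-fold (adjusted p = 0.0111).

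**Figure D1:**
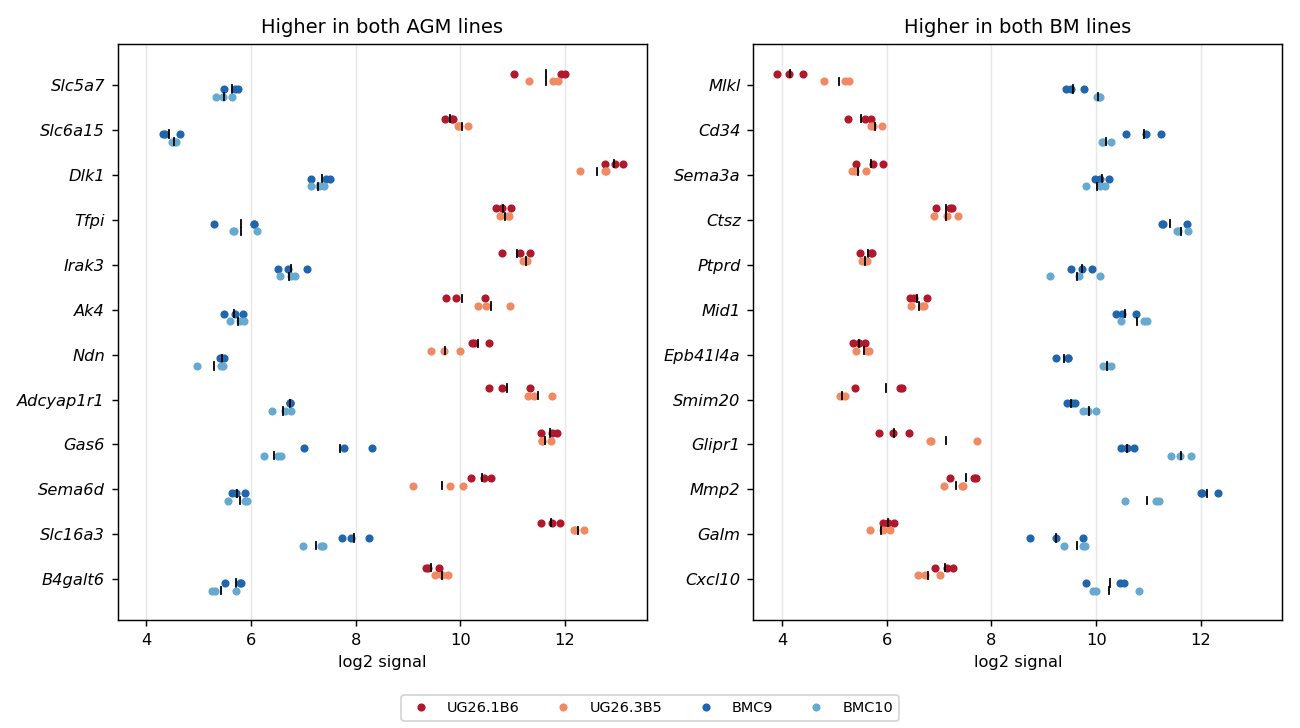
Log2 signal of the 12 genes per direction with the widest gap among called genes in which the arrays of the tissues did not overlap. The lack of overlap is thus fixed by the choice. Each point is an array, colours mark the 4 lines, and black bars are line means. Gas6 in BMC9 and Mmp2 in BMC10 show the widest distance between lines of a tissue.

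Ordered along the chromosomes by the RefSeq gene table, neighbouring genes differed together between the tissues in 9 stretches, a pattern chosen for description after the values were seen. A stretch was a run of at least 25 genes with signal above the median in which the running median of the difference over 51 neighbours stayed beyond 0.3 in either direction. On chromosome 8 a stretch from Slc7a6os to Itgb1, the end of the gene order, held 224 genes with a median difference of -0.63 among the 149 above the median signal. The median was -0.61, -0.64, -0.58 and -0.63 in the 4 comparisons of an AGM with a BM line, whereas within tissues the same genes had medians of -0.04 and -0.04. There 31 genes were called higher in BM and 1 higher in AGM, 14.3% of the genes beside 1.86% over all genes, and 67% were separated with BM above. On chromosome 10, 239 genes from Apba3 to Srgap1 had a median of 0.52, with 18 called higher in AGM and 3 higher in BM (8.79%). The distal stretch of chromosome 12, 407 genes from Psma3 to Tmem196, had a median of 0.43, with 11 calls on the AGM side and 1 on the BM side (2.95%), and its median also differed between BMC9 and BMC10, by 0.24.

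Chromosomes 7 and 15 leaned to the BM side throughout. Chromosome 18 did so to a lesser degree, with running medians of -0.17 to -0.06. On chromosome 7 the median over genes was -0.28, the running median never rose above -0.20, and 31 genes were called higher in BM against 5 higher in AGM. On chromosome 15 the median was -0.27, with 15 calls on the BM side and 7 on the AGM side. The 9 stretches together held 8.18% of all genes, 17.1% of the genes called higher in AGM and 33.7% of those called higher in BM. Outside them 278 genes were called, 1.52% of the genes there. When each line's levels were centred on the neighbouring genes, 143 of the 193 and 99 of the 178 calls remained, and in the stretches 11 of 33 and 12 of 60. The 24 genes named so far all remained, among them Mlkl on chromosome 8 (adjusted p = 0.0288), Slc6a15 and Irak3 on chromosome 10 (both 0.00512) and Dlk1 on chromosome 12 (0.00996). Glipr1, on chromosome 10, differed against the direction of its neighbours, whose running median was 0.52. In the second normalization set the chromosome 8 genes had a median of -0.05 between the AM lines and 14F1-1, and the chromosome 10 genes -0.61. DNA was not measured, and the part of chromosome content in these differences was not tested.

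**Figure D2:**
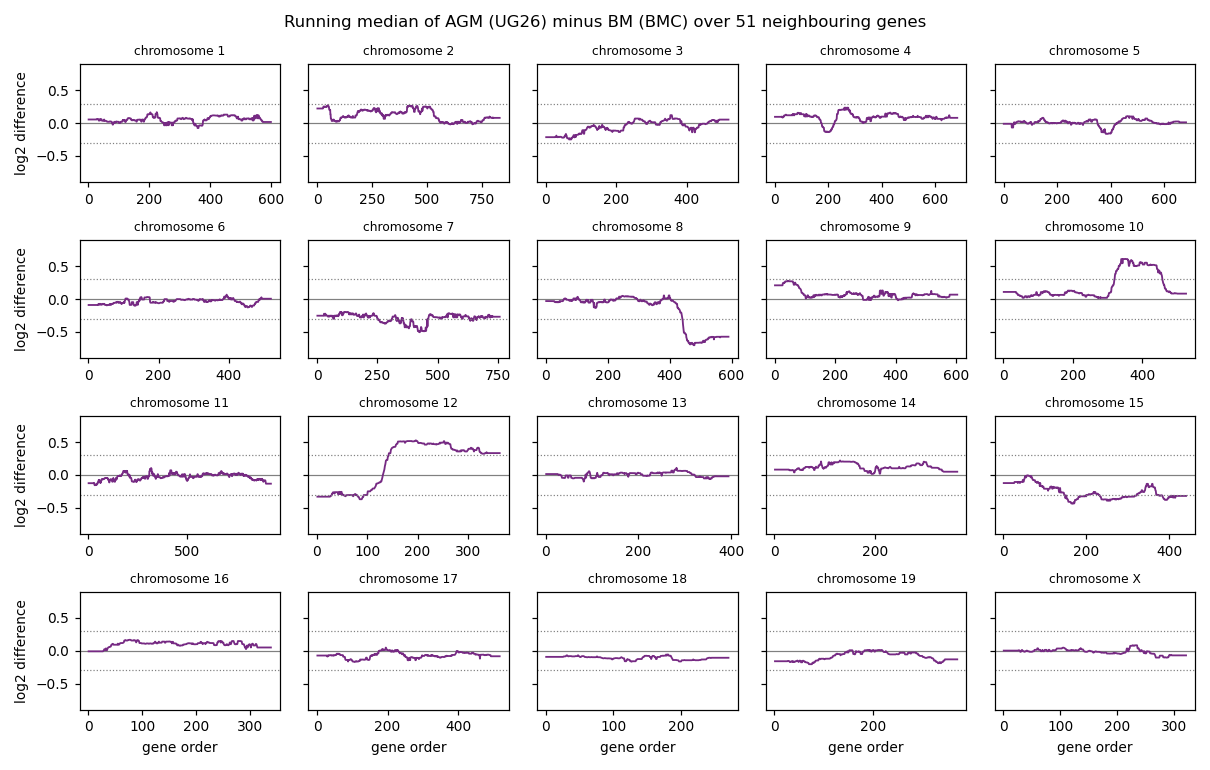
Running median over 51 neighbouring genes of the log2 difference, UG26 lines minus BMC lines, against gene order on each chromosome; dotted lines mark 0.3 and -0.3, and genes below the median signal are left out. The end of chromosome 8 falls to about -0.70, and parts of chromosomes 10 and 12 rise. Chromosomes 7, 15 and 18 lie below 0 along their whole length, with chromosome 18 no lower than -0.17.

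Hox genes, which record the position of mesoderm along the body axis, differed between the AGM and BM lines in part of their clusters. Hoxb2 was at 9.01, 8.80 and 8.71 in UG26.1B6, 9.26, 9.49 and 9.43 in UG26.3B5, 7.01, 6.81 and 7.09 in BMC9 and 6.46, 6.78 and 6.32 in BMC10 (difference 2.37, SE 0.258, adjusted p = 0.0452). Hoxa2 (1.31), Hoxa3 (1.20) and Hoxa6 (1.07) were called higher in AGM as well (adjusted p = 0.0431, 0.0235 and 0.0309). Hoxa11, known from the limb and the uterus, went the other way: 5.87 to 6.44 in the AGM arrays, 8.90, 8.29 and 8.87 in BMC9 and 8.75, 8.31 and 8.63 in BMC10 (difference -2.49, adjusted p = 0.0149). These 5 were the only calls among 37 Hox genes measured, 4 higher in AGM (0.968% of all genes) and 1 higher in BM (0.893%), and 15 and 11 were separated, beside 19.8% and 27.5% of all genes. Hoxb2 lost its call without the first UG26.1B6 array (0.0565), the second of BMC9 (0.0511) or the second of BMC10 (0.0543). Hoxa2 lost it without the first UG26.3B5 array (0.0811), Hoxa3 without the second (0.0505) and Hoxa6 without the second BMC9 array (0.0675).

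The clusters did not follow a single order. The genes of paralog groups 1 to 8 of HoxA were separated with AGM above in 6 of 6, at differences of 0.27 to 1.31 (median 1.13), and those of HoxB in 6 of 7 (median 1.13, highest 2.37). In HoxA groups 9 to 13 the order turned, with BM above for 3 of 4 genes: Hoxa10 at -0.25, Hoxa13 at -0.35 and Hoxa11 as above, and Hoxa9 at 0.17. In HoxB groups 9 to 13, Hoxb9 (1.54) and Hoxb13 (0.56) were not separated. In HoxC groups 1 to 8 none of 4 genes had AGM above and 2 had BM above, Hoxc4 at -1.01 and Hoxc5 at -1.04, and both AM lines lay above 14F1-1 for 2 of the 4. The HoxC genes of groups 9 to 13 had BM above in 3 of 5, with Hoxc10 at -1.55, Hoxc12 at -1.07 and Hoxc9 at -1.05, and Hoxc13 at 0.70 in the other direction. HoxC lies on chromosome 15, where the neighbours of Hoxc10 and Hoxc12 had a running median of -0.32. The 9 HoxD genes measured had line means between 5.28 and 6.56 and differences within 0.18 of 0. In the AM lines against 14F1-1, the HoxA and HoxB genes of groups 1 to 8 lay above in both AM lines for 4 of 6 and 6 of 7, and the HoxA genes of groups 9 to 13 lay below in both for 4 of 4. Genes around the Hox system were looked up after these values were seen. Meis1 and Meis2, homeodomain cofactors of Hox proteins, were higher in AGM by 1.85 and 1.57 (adjusted p = 0.0235 and 0.0416), as was the HoxA antisense transcript Hoxaas2 (2.13, 0.0138). Hoxaas2 overlaps HoxA genes, and whether its probes also read transcripts of the other strand was not examined. Pitx1, a regulator of the hindlimb, had line means of 6.63 and 6.61 in the AGM lines and 8.90 and 9.05 in the BM lines (-2.36, adjusted p = 0.00925), while the limb genes Tbx4 and Tbx5 were between 4.98 and 5.96 in all arrays.

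**Figure D3:**
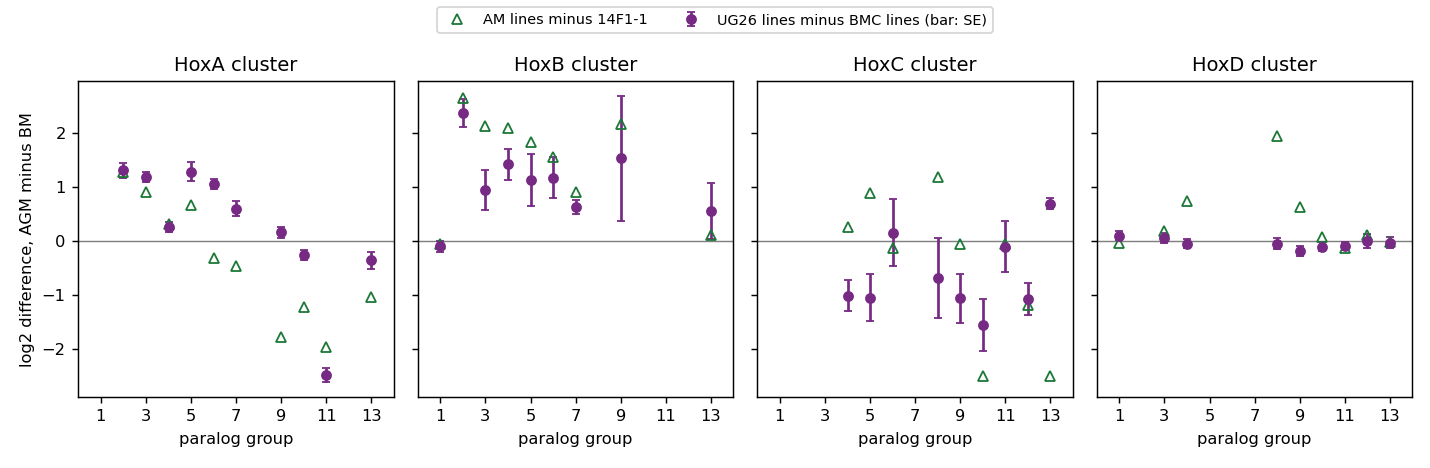
Log2 difference AGM minus BM by paralog group in the 4 Hox clusters. Filled circles are UG26 lines minus BMC lines with the SE over 2 lines a side, and open triangles are the mean of AM14-1C4 and AM30-3F4 minus 14F1-1 in the other normalization set; circles of HoxA groups 2 to 7 and HoxB groups 2 to 7 lie above 0, Hoxa11 lies at -2.49 and HoxD circles lie near 0.

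Regulators of the urogenital ridge, the tissue next to the aorta at this age, were called in both directions. Of 33 measured, 2 were called higher in AGM and 2 higher in BM, beside 0.968% and 0.893% of all genes, and 8 and 6 were separated, beside 19.8% and 27.5%. Gata4, a zinc-finger factor of heart, gonad and splanchnic mesoderm, was at 9.78 to 9.86 in UG26.1B6, 10.39 to 10.66 in UG26.3B5 and 7.23 to 7.86 in the BM arrays (2.64, SE 0.257, adjusted p = 0.0385). Foxd1, which marks the renal stroma, was higher in AGM by 1.11 (adjusted p = 0.0302), a call lost without the first UG26.1B6 array (0.0664). Emx2, needed for the kidney and gonad, was at 7.41 to 7.96 in AGM arrays and 9.09 to 9.68 in BM arrays (-1.79, adjusted p = 0.0235). Nr2f2, an orphan nuclear receptor of mesenchyme, had a difference of -1.63 (adjusted p = 0.0416), lost without the first (0.0532) or second (0.0556) BMC10 array and after centring on its neighbours on chromosome 7 (0.0711). Foxd1 was also lost after centring (0.0997). Eya1, a cofactor of early kidney development, had 10.13 to 10.76 in AGM arrays, 9.76, 8.36 and 8.31 in BMC9 and 7.16 to 7.76 in BMC10 and was not called (2.39, adjusted p = 0.12).

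Among 36 regulators and markers of marrow stroma 1 was called, on the BM side (0.893% of all genes), and 13 were separated with BM above and 2 with AGM above, beside 27.5% and 19.8% of all genes. That call was Vcam1, the adhesion molecule that retains hematopoietic cells, at 9.20 to 9.81 in AGM arrays and 10.17 to 11.00 in BM arrays (-1.13, adjusted p = 0.0235), lost without the first UG26.1B6 array (0.0538). In the second set the order was opposite, with Vcam1 at 11.31 in AM14-1C4, 7.77 in AM30-3F4 and 7.39 in 14F1-1. Sox9, the chondrocyte factor, was at -1.26 (adjusted p = 0.0925), Ebf1 at -0.49 (0.107) and Twist2 at 0.72 (0.182). No gene was called among 17 osteoblast and 20 chondrocyte markers, beside 1.86% of all genes. Of 22 adipocyte genes Ebf2, a factor of adipocyte precursors, was called higher in AGM (2.55, adjusted p = 0.048), and its call was lost without the first UG26.1B6 array (0.0647), without the third of BMC9 (0.0535) and after centring on neighbours (0.0603). Ebf2 was also opposite in the second set, at 5.64 and 5.84 in the AM lines and 8.32 in 14F1-1. The marrow genes Cxcl12 (1.79) and Kitl (-0.19) were not separated: line by line, the tissues overlapped.

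Among 48 factors reported to act on stem cells in their niche, 3 were called higher in AGM and 1 higher in BM, beside 0.968% and 0.893% of all genes, and 15 and 9 were separated, beside 19.8% and 27.5%. Beside Dlk1 the AGM side held Sfrp1, a secreted Wnt antagonist, at 9.42, 9.61 and 10.71 in UG26.1B6, 9.22, 9.53 and 9.52 in UG26.3B5, 6.00, 6.06 and 5.73 in BMC9 and 5.67, 5.58 and 5.71 in BMC10 (14.7-fold, SE 0.208, adjusted p = 0.0155). In the second set Sfrp1 was at 9.99 in AM14-1C4, 7.52 in AM30-3F4 and 9.64 in 14F1-1, so the AM lines lay on both sides of that BM line. Il6, the pleiotropic cytokine, was at 5.39 to 5.92 in AGM arrays and 3.75 to 4.06 in BM arrays (1.73, adjusted p = 0.0138), without overlap. Its AGM mean of 5.62 also lay under the first quartile of all genes (5.73). Its signal was therefore not shown to be above background in either tissue. Ptn, the heparin-binding growth factor pleiotrophin, showed a wide but uneven difference. It was at 10.92 to 11.87 in the AGM arrays, 9.70, 9.16 and 9.43 in BMC9 and 5.95, 5.33 and 5.62 in BMC10, and the difference of 3.89 (SE 1.33) was not called (adjusted p = 0.25).

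The Wnt pathway was represented by 61 genes, with 3 called higher in AGM and 1 higher in BM, beside 0.968% and 0.893% of all genes. Sfrp1 was joined on the AGM side by the receptor Fzd3 (1.98, adjusted p = 0.0149) and the co-receptor Lrp5 (1.22, adjusted p = 0.0181). Fzd3 had 6.69 to 7.37 in AGM arrays and 4.77 to 5.23 in BM arrays, and Lrp5 9.99 to 10.22 and 8.72 to 9.16. On the BM side stood Dkk3, a secreted protein of the Dickkopf family, at 5.97 to 6.30 in AGM arrays, 9.78, 8.73 and 8.77 in BMC9 and 9.52, 8.73 and 7.59 in BMC10 (-2.72, adjusted p = 0.0236; without the first BMC10 array 0.0613). Of the 61 genes 17 were separated with BM above and 7 with AGM above, beside 27.5% and 19.8% of all genes, and no ligand of the family was called. Axin2, a target gene read as a gauge of Wnt signalling, differed by 0.01.

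In 4 other signalling families the calls, 0 or 1 in each, are to be read beside the 1.86% of all genes called. Of 14 Hedgehog genes the co-receptor Boc was called higher in AGM, at 8.66 to 9.67 in AGM and 6.91 to 7.27 in BM arrays (2.11, adjusted p = 0.0382; without the second UG26.3B5 array 0.0543), whereas the target genes Gli1 (-0.08) and Ptch1 (-0.78) were not called. Of 55 BMP and TGF-beta genes only Ltbp4, a binding protein of latent TGF-beta, was called, higher in BM (-1.51, adjusted p = 0.0253). Of the BMP and TGF-beta genes 15 were separated with AGM above and 7 with BM above, beside 19.8% and 27.5% of all genes. The former included the BMP target genes Id1 (1.06), Id3 (0.96) and Smad6 (1.14), with adjusted p of 0.135, 0.0542 and 0.151. Both AM lines lay above 14F1-1 for 2 of those 15. No gene of 21 in the Notch pathway and none of 20 retinoid genes was called. The retinoic acid binding proteins Crabp2 (-3.33, adjusted p = 0.0775) and Crabp1 (-2.23, 0.254) were separated with BM above, with gaps of -2.44 and -0.68 (beside 27.5% of all genes separated that way).

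Of 36 genes of the IGF system and fetal growth, 3 were called, all higher in AGM (0.968% of all genes): Dlk1 and Ndn, given above, and Igfbp6, which binds IGF2 in preference to IGF1. Igfbp6 was at 9.91, 10.15 and 10.57 in UG26.1B6, 9.99, 10.10 and 10.16 in UG26.3B5, 7.42, 7.43 and 7.36 in BMC9 and 7.41, 7.33 and 7.18 in BMC10 (6.93-fold, SE 0.0883, adjusted p = 0.00723). Of the list 16 were separated with AGM above and 7 with BM above, beside 19.8% and 27.5% of all genes, with a median of 0.06 beside -0.02 over all genes. Grb10, an imprinted adaptor that dampens insulin and IGF receptors, was at 11.95 to 12.19 in the AGM arrays, 5.37, 5.79 and 6.10 in BMC9 and 9.51, 9.70 and 9.36 in BMC10. Its difference of 4.41 had an SE of 1.32 and was not called (adjusted p = 0.202), with the BM lines further apart than BMC10 was from either AGM line. The imprinted Peg10 (2.03, adjusted p = 0.0644) and Meg3, the maternally expressed neighbour of Dlk1 (2.12), were separated without a call. On the BM side were Igfbp4 (-2.26) and Igf1r (-1.45), neither called, and Igf2 itself differed by -0.09. The fetal RNA regulators Lin28b (-0.25), Igf2bp1 (0.57), Igf2bp3 (0.42) and Hmga2 (0.43) were looked up after their values were seen and were not called.

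Of 28 basement membrane genes measured, 15 were separated with AGM above and 2 with BM above, beside 19.8% and 27.5% of all genes, and the median was 0.26. The call was Npnt, the nephronectin ligand of integrin alpha 8, at 10.56 to 10.81 in AGM arrays, 6.96, 8.02 and 7.31 in BMC9 and 7.71, 8.16 and 7.93 in BMC10 (8.0-fold, SE 0.19, adjusted p = 0.0206). The type IV collagen chains Col4a1 (1.06, adjusted p = 0.114) and Col4a2 (0.77), the nidogens Nid1 (0.77, 0.104) and Nid2 (1.36), the laminin chains Lamc1 (0.57) and Lamb2 (0.38), and the perlecan gene Hspg2 (0.52) were each separated in that direction without a call. Mmp2, the gelatinase of type IV collagen named above, was higher in BM.

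No gene of 18 interstitial collagens was called, and Col1a1 (-0.47) and Col3a1 (-0.05) overlapped between tissues. Of 47 small leucine-rich and matricellular proteins, 15 were separated with AGM above and 12 with BM above, beside 19.8% and 27.5% of all genes. Ogn, osteoglycin, was at 7.27, 7.90 and 7.84 in UG26.1B6, 6.23, 6.14 and 6.17 in UG26.3B5, 11.51, 10.22 and 10.66 in BMC9 and 11.02, 10.49 and 8.82 in BMC10 (-3.53, adjusted p = 0.0825), and Prg4, lubricin, reached 3.13 (0.107). Ccn2, a YAP and TGF-beta target, was the list's call, on the BM side (-1.03, adjusted p = 0.049), but its arrays overlapped: it was at 11.64, 10.91 and 10.78 in UG26.1B6, 12.31, 10.06 and 10.12 in UG26.3B5, 11.70, 12.09 and 12.20 in BMC9 and 11.79, 11.87 and 12.33 in BMC10. That call was lost without any of 7 arrays: the second (0.0718) or the third (0.0931) of UG26.1B6, the first of UG26.3B5 (0.153), the second (0.0525) or the third (0.0626) of BMC9, and the second (0.051) or the third (0.0608) of BMC10. Of 26 smooth muscle and contractile genes, where Ccn2 was again the only call, 12 were separated with BM above and 3 with AGM above, beside 27.5% and 19.8% of all genes (median -0.22). Acta2 (-1.15, adjusted p = 0.109) and Tagln (-1.56, 0.143) were among them and were not called. In the second set 1 of the 12 genes with BM above had both AM lines below 14F1-1. AM14-1C4 lay above 14F1-1 for 6 of the 12 and AM30-3F4 for 11.

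**Figure D4:**
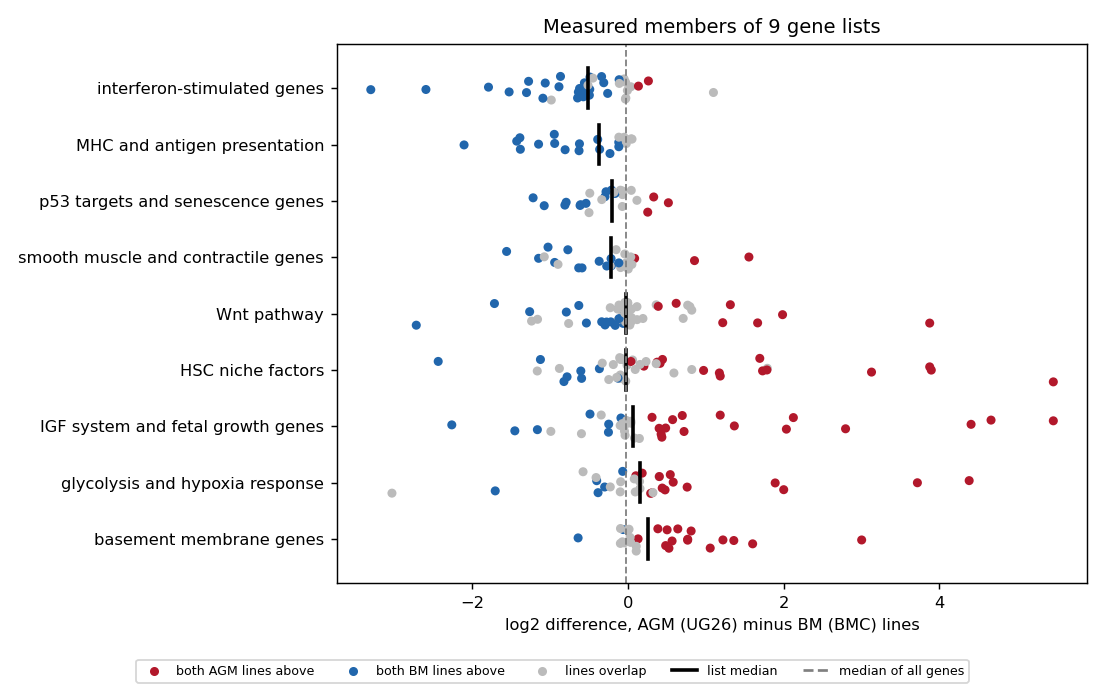
Log2 difference, UG26 lines minus BMC lines, of every measured member of 9 gene lists. Red points have both AGM lines above both BM lines, blue points the reverse and grey points overlap; black bars are list medians, from -0.51 for interferon-stimulated genes to 0.26 for basement membrane genes, beside the dashed median of all genes at -0.02.

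Interferon-stimulated genes, which cells switch on when interferon binds its receptor, lay higher in the BM lines. Of 38 measured, 25 were separated with BM above and 2 with AGM above, beside 27.5% and 19.8% of all genes, with a median of -0.51. Both calls were on the BM side (0.893% of all genes). Cxcl10 was at 6.93, 7.27 and 7.15 in UG26.1B6, 6.59, 7.02 and 6.74 in UG26.3B5, 10.54, 9.81 and 10.45 in BMC9 and 10.81, 9.94 and 10.00 in BMC10. Irf1 was at 8.25 to 8.50 in AGM arrays and 9.01 to 9.40 in BM arrays (-0.87, adjusted p = 0.035). Ifit1, which binds foreign RNA, was at 5.43, 6.45 and 5.88, then 5.81, 5.91 and 5.61 in the AGM lines, 10.07, 8.86 and 8.64 in BMC9 and 8.55, 7.55 and 6.99 in BMC10 (-2.60, SE 0.528, adjusted p = 0.11). BMC9 thus lay above BMC10 for Ifit1, and it did so for 23 of the 25 genes. The list medians were 6.39 and 6.17 in UG26.1B6 and UG26.3B5, 7.37 in BMC9 and 6.50 in BMC10, with BMC9 the highest of the 4. In the other set the list median was 8.11 in AM14-1C4, 6.48 in AM30-3F4 and 6.56 in 14F1-1, and AM14-1C4 lay above 14F1-1 for 20 of the 25 genes. In that set 5 of the 25 had both AM lines below 14F1-1.

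The promoters of these genes are shown because a short motif bound by interferon-regulated factors is common in them. The core letters GAAA, any 2 bases and GAAA again were searched on both strands in the 250 bases before the start of each gene in RefSeq's promoter table for GRCm38.p6. They occurred in 10 of the 19 interferon-stimulated genes with BM above that had a promoter in the table (52.6%), in 4 of 7 other interferon-stimulated genes (57.1%) and in 531 of the 15614 measured genes with a promoter (3.4%). Among genes called higher in BM the share was 7 of 133 (5.26%). In the windows of 60 bases below, on the strand of the gene, capitals mark the motif or its reverse complement, and overlapping matches are joined:
Cxcl10, chr5:92349068-92349127, minus strand: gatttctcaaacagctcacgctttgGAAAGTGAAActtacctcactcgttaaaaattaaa
Ifit1, chr19:34640779-34640838, plus strand: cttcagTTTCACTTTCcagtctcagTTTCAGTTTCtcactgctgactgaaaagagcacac
Gbp7, chr3:142530258-142530317, plus strand: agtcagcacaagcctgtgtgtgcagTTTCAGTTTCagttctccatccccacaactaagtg
Bst2, chr8:71537562-71537621, minus strand: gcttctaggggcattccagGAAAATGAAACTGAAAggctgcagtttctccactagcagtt
Ifit1 and Bst2 each held 2 matches, which overlap in Bst2. Gbp7, a guanylate-binding protein, differed by -1.28 and Bst2, the tetherin that holds budding virions, by -0.49. The motif was about as common in the interferon-stimulated genes that were not higher in BM, and a match in these letters is a description of the sequence and not a measured site.

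Antigen presentation genes lay on the BM side too, and more evenly over its lines. Of 22 measured, 15 were separated with BM above (27.5% of all genes) and none with AGM above (19.8%), 2 were called higher in BM (0.893%), 10 passed in all 4 comparisons of an AGM with a BM line (3.84% of all genes did so with BM above), and the median was -0.38. Psmb8, a subunit of the immunoproteasome, was at 5.64 to 5.92 in AGM arrays, 7.21, 7.32 and 7.55 in BMC9 and 7.05, 7.03 and 7.15 in BMC10 (-1.43, adjusted p = 0.0307). Cd74, the invariant chain of class II molecules, was at 5.55 to 5.89 in AGM arrays and 6.26 to 6.95 in BM arrays (-0.94, adjusted p = 0.0432). It lost the call without the first (0.0538) or second (0.0509) UG26.1B6 array, the first of BMC9 (0.0653) or the first of BMC10 (0.0626). Tap1, which carries peptides into the endoplasmic reticulum, had the widest difference of the list, with 6.56 to 7.23 in AGM arrays, 9.60, 9.02 and 9.15 in BMC9 and 8.88, 8.61 and 8.37 in BMC10 (-2.11, adjusted p = 0.0541). The class II genes H2-Aa (-0.02) and H2-Ea (-0.03) and the class II activator Ciita (-0.05) barely differed. Unlike the interferon-stimulated genes, BMC9 was above BMC10 for 9 of the 15, and 11 of the 15 had both AM lines below 14F1-1, with 14F1-1 above the AM lines in the list median (6.98 against 6.76 and 6.42). Major histocompatibility genes differ in sequence between mouse strains, and strain goes with tissue here.

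Of 43 chemokines, cytokines and complement genes, 2 were called higher in AGM and 3 higher in BM, beside 0.968% and 0.893% of all genes. Cd55, which protects cells from complement, was at 6.86, 7.70 and 7.45 in UG26.1B6, 8.08, 8.52 and 8.29 in UG26.3B5 and 3.63 to 3.98 in the BM arrays (16.4-fold in signal, SE 0.345, adjusted p = 0.0307, with the BM signal not shown to be above background), and Il6 is given above. The BM side held Cxcl10 and 2 more chemokines. Cxcl5, a neutrophil attractant, was at 4.92 to 5.38 in AGM arrays and 6.99 to 8.34 in BM arrays (5.43-fold higher in BM, adjusted p = 0.0101). Ccl5, an attractant of T cells, was at 7.01 to 7.19 in AGM arrays, 9.64, 9.49 and 9.50 in BMC9 and 9.01, 9.07 and 8.68 in BMC10 (4.43-fold, adjusted p = 0.0439; without the second BMC10 array 0.0556). The AGM lines were in turn higher in Ccl2 (0.91) and Ccl7 (0.65), monocyte attractants that were separated without a call.

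Of 31 genes of glycolysis and the hypoxia response, 3 were called higher in AGM and 1 higher in BM, beside 0.968% and 0.893% of all genes. Besides Slc16a3 these were Egln3, an oxygen-sensing prolyl hydroxylase, and Pfkfb4, a regulator of glycolytic flux. Egln3 was at 9.35, 9.50 and 9.88 in UG26.1B6, 10.51, 10.61 and 10.50 in UG26.3B5 and 6.27 to 6.43 in the BM arrays (13.1-fold, adjusted p = 0.0359). Pfkfb4 was at 9.57 to 10.29 in AGM and 7.80 to 8.25 in BM arrays (4.0-fold, adjusted p = 0.0374), a call lost without the first UG26.1B6 array (0.0565) and after centring on neighbours (0.0712). On the BM side the glucose transporter Slc2a3 was at 5.87 to 6.27 in AGM arrays and 7.38 to 8.17 in BM arrays (-1.71, adjusted p = 0.0477). Its call was lost without the first UG26.1B6 array (0.0566), the second of UG26.3B5 (0.0521), the second of BMC9 (0.0605) or the first of BMC10 (0.0532). In the list 14 genes were separated with AGM above and 5 with BM above, beside 19.8% and 27.5% of all genes (median 0.15), and the enzymes Ldha (0.08), Pgk1 (0.29) and Pkm (0.31) differed little. Among the separated genes 6 had both AM lines on the same side of 14F1-1 and 10 on the opposite side.

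No gene was called among 43 cell cycle genes (median 0.01) or 27 genes of cholesterol and fatty acid synthesis (median -0.23). Mki67, a proliferation marker, was at 11.33 to 11.59 in AGM arrays and 11.57 to 11.87 in BM arrays. Ccnd2, a D-type cyclin, was at 10.51 to 11.09 in UG26.1B6, 7.62 to 8.29 in UG26.3B5 and 11.80 to 12.06 in the BM arrays (-2.58, SE 1.02, adjusted p = 0.311), so that UG26.3B5 alone was low. Of 25 p53 targets and senescence genes 11 were separated with BM above and 3 with AGM above, beside 27.5% and 19.8% of all genes (median -0.21). Sesn2, a stress-induced inhibitor of mTORC1 signalling, was called higher in BM (-1.08, adjusted p = 0.0452). It lost the call without the first UG26.1B6 array (0.0538), the third of UG26.3B5 (0.0558), the third of BMC9 (0.062), or the first (0.0532) or second (0.124) of BMC10.

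MicroRNA genes on the arrays report precursor transcripts and not mature microRNAs. None of the 6 microRNAs of the Hox clusters was called, and Mir10a, between Hoxb4 and Hoxb5, was at 3.92 to 4.45 in AGM arrays and 3.76 to 3.99 in BM arrays (0.43, adjusted p = 0.12). Other microRNA genes were looked up after their values were seen. The transcript Mir99ahg, which carries Mir99a and Mirlet7c-1 on chromosome 16, had line means with BM above for all 3 features, at differences of -2.12, -1.73 and -1.30 (adjusted p = 0.0952, 0.113 and 0.15). Mir99a was at 4.58, 4.79 and 4.85 in UG26.1B6, 4.61, 4.47 and 4.69 in UG26.3B5, 6.02, 5.98 and 5.71 in BMC9 and 7.60, 6.81 and 6.27 in BMC10. All 6 BM arrays lay above all 6 AGM arrays, and the BMC10 arrays above the BMC9 arrays. Mir140, a microRNA of cartilage within Wwp2, was called higher in BM, at 5.32 to 5.50 in AGM arrays and 5.97 to 6.44 in BM arrays (-0.82, SE 0.0776, adjusted p = 0.0366). It lies in the stretch of chromosome 8, and its host gene Wwp2 differed by -0.53 (adjusted p = 0.0948) beside a running median of -0.63. The mature sequences are shown because the 3 have different seeds and thus different sets of possible targets (RefSeq, GRCm38.p6, plus strand, seed at bases 2 to 8 in capitals):
miR-99a-5p, chr16:77598940-77598961: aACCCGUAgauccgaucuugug
let-7c-5p, chr16:77599672-77599693: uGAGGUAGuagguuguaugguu
miR-140-3p, chr8:107551288-107551308: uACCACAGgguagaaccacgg

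The second set of lines shows which of the differences recur between other clones of the same tissues. A called gene is counted as kept when both AM lines lay on the same side of 14F1-1 as the UG26 lines of the BMC lines, with 1 BM line and no test. Of 193 genes called higher in AGM 94 were kept (48.7%), 58 had both AM lines on the opposite side (30.1%) and 41 had the AM lines on both sides. Over all genes both AM lines lay above 14F1-1 for 37.7% and below for 34.2%. Of 178 genes called higher in BM 67 were kept (37.6%) beside a background of 34.2%, and 50 were opposite (28.1%) beside 37.7%. Where the AM lines also cleared 14F1-1 by at least 1, 33 of the 193 were kept and 19 opposite (17.1% and 9.84%), beside 1.7% and 2.41% of all genes. On the BM side the numbers were 17 and 7 of 178 (9.55% and 3.93%), beside 2.41% and 1.7%. The AM lines differ in temperature and strain from 14F1-1, so here too the sources of difference go together.

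Taken singly, AM14-1C4 kept 62.2% and AM30-3F4 56.5% of the AGM-higher calls, beside 52.8% and 50.6% of all genes. Of the BM-higher calls AM14-1C4 kept 59.6% beside 47.1% of all genes. AM30-3F4 kept 50.0% of them, near its background of 49.4%. Several of the strongest differences were wide only against AM14-1C4. Dlk1 was at 13.69 in AM14-1C4, 8.09 in AM30-3F4 and 7.96 in 14F1-1, and Tfpi at 11.19, 7.23 and 8.17. Slc5a7, the gene with the largest difference between the UG26 and BMC lines, was at 5.79, 6.92 and 5.69, so neither AM line approached the UG26 lines. Irak3 was opposite, at 7.28 and 7.84 in the AM lines and 10.20 in 14F1-1. On the BM side Mmp2 was opposite, at 12.89 and 11.49 in the AM lines and 7.16 in 14F1-1. Cd34 was opposite too, at 10.90 in AM14-1C4, 6.50 in AM30-3F4 and 6.16 in 14F1-1. Mlkl was high in all 3 lines of that set, at 9.01 and 9.92 in the AM lines and 9.58 in 14F1-1. So were Sema3a (11.23, 10.52 and 10.91), Ctsz (10.72, 11.47 and 11.32) and Mid1 (10.43, 9.46 and 9.85). For these genes the AM lines lay far above the UG26 lines. Galm kept its order, at 8.72, 8.43 and 10.30. Of the 12 named genes per direction 6 were kept on the AGM side and 1 was opposite, and 2 were kept on the BM side and 3 were opposite. Several of these were near ties. On the AGM side the gap to 14F1-1 was 0.10 for Slc5a7, 0.12 for Slc16a3, 0.13 for Dlk1 and 0.30 for Adcyap1r1. It was 4.21 for Ndn and 3.48 for B4galt6. On the BM side it was -1.58 for Galm and -0.13 for Glipr1, both kept. For the opposite genes it was 4.33 for Mmp2, 0.33 for Cd34 and 0.02 for Cxcl10.

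The genes with the largest gap in both sets, by the smaller of the gaps, began with Ndn and B4galt6 on the AGM side. Ndn was at 10.74 and 9.86 in the AM lines and 5.65 in 14F1-1, and B4galt6 at 9.99, 9.57 and 6.10. Pdzrn3, a ubiquitin ligase of muscle and bone precursors, had 9.40 to 10.11 in UG26 arrays and 5.71 to 6.15 in BMC arrays (14.1-fold, adjusted p = 0.0097), with 10.56 and 8.67 in the AM lines and 5.90 in 14F1-1. Tiam1, an exchange factor of Rac, had 8.82 to 9.36 and 5.63 to 6.13 (8.76-fold, adjusted p = 0.0138), with 9.87, 9.13 and 6.80 in the second set. Usp13, a deubiquitinase, had 7.92 to 8.50 and 5.12 to 5.48 (7.77-fold, adjusted p = 0.00409), with 8.13, 8.0 and 5.90. Tmem176a followed at 10.2-fold (adjusted p = 0.0431; without the second BMC10 array 0.051). The shared direction of these genes is fixed by the choice on both gaps and supports nothing further.

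On the BM side the same choice gave Galm, Adh7, Pcdh19, Calhm5, Hoxa11 and Akr1c14. Adh7, an alcohol and retinol dehydrogenase, had 6.81 to 7.13 in UG26 arrays and 8.93 to 9.69 in BMC arrays (5.06-fold higher in BM, adjusted p = 0.00818), with 7.37 and 7.29 in the AM lines and 9.52 in 14F1-1. Hoxa11 was at 6.19 and 6.80 in the AM lines and 8.45 in 14F1-1. Pcdh19, a protocadherin, was 5.28-fold higher in the BMC lines (adjusted p = 0.0235), with 7.24, 8.22 and 10.35 in the second set. Calhm5 was 5.77-fold higher (adjusted p = 0.0452; without the second UG26.3B5 array 0.0505). Akr1c14, a hydroxysteroid dehydrogenase, was 3.66-fold higher (adjusted p = 0.0437), and its call was lost without the second array of UG26.1B6 (0.0531) or UG26.3B5 (0.0543), the first of BMC9 (0.0779) or the third of BMC10 (0.063).

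**Figure D5:**
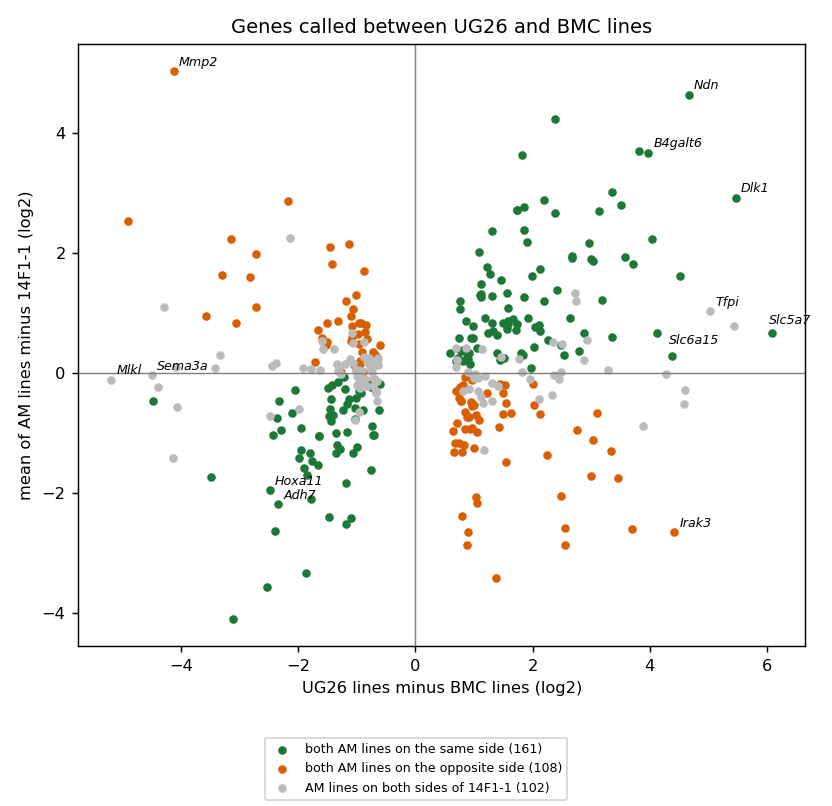
Each point is a gene called between the UG26 and BMC lines, with that log2 difference on the horizontal axis and the difference of the mean of AM14-1C4 and AM30-3F4 from 14F1-1, in another normalization set, on the vertical axis. Green marks the 161 genes with both AM lines on the same side of 14F1-1, orange the 108 on the opposite side and grey the 102 with the AM lines on both sides.

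The fetal liver lines AFT024 and BFC012, from embryonic day 14.5 and normalized with the 12 arrays, give the side on which another tissue falls. For genes called higher in AGM, both fetal liver lines lay nearer the BM mean in 87 of 193 (45.1%) and nearer the AGM mean in 48 (24.9%), beside 32.5% and 30.2% of all genes. For genes called higher in BM, both lay nearer the BM mean in 90 of 178 (50.6%) and nearer the AGM mean in 32 (18%). Among all separated genes with AGM above the shares were 41.8% and 23.5%, close to those of the called genes. Among separated genes with BM above they were 30% and 32%. Slc6a15 and Usp13 were as low in the fetal liver lines (4.47 and 4.48, then 5.23 and 5.13) as in the BM lines. Mlkl was as high there (10.56 and 9.74) as in BM, and Mid1 higher still (11.83 and 11.53). Dlk1 and Ndn divided the pair, with Dlk1 at 12.90 in AFT024 and 7.45 in BFC012 and Ndn at 5.51 and 9.65. Lrp5, at 10.12 and 10.22, and Tiam1, at 9.70 and 9.06, were in both fetal liver lines near the AGM level.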

How the data were processed

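RNA of confluent stromal cultures was hybridised to Affymetrix whole-transcript gene arrays from 100 ng per array, per the labels' protocols. The deposited values are log2 signal per probe set that the authors normalized by RMA, per the submitters' processing notes. Partek is the other tool these notes name, and no version is given in the sources used here. The series matrix held 35556 probe sets, of which 21789 had 1 gene symbol in the platform annotation, 1621 several and 12146 none. Genes (19938) were probe sets with 1 symbol, and for the 999 genes with several probe sets the probe set with the highest mean over the 51 arrays stood for the gene. Line means of 3 arrays were fitted with limma 3.58.1 in R 4.3.3 (lmFit and eBayes, 2 residual df, 2.1 prior df), and p-values were adjusted by Benjamini-Hochberg over all genes at 0.05. The number of arrays limits the precision, and p-values measure the spread between 2 lines a side. Gene order and sequences came from RefSeq tables (GRCm38.p6), with a position for 19919 genes.

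The genes named were the 12 per direction with the widest gap among called genes with all arrays separated, the 6 per direction with the largest smaller gap of both sets, and up to 5 per described list by gap, called genes first, beside sex chromosome genes and Hox cluster microRNAs. Predicted, ribosomal, olfactory and vomeronasal receptor and other unnamed symbols were left out of this rule. Genes said to be looked up after their values were seen lie outside it, as do list members given to describe a list. The members, the 31 lists (859 genes, 791 measured) and the tests were chosen with earlier results of these data known. The fits were tested on simulated data. Alternatives were another normalization, filters, probe rules, variance models, blocks, the support label, left-out arrays and lines and, added after seeing the data, centring on neighbouring genes and leaving out chromosome stretches.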

Additional observations from a re-analysis of the deposited data

Results flagged for a closer look

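Each tissue holds a supportive and a less-supportive line, so the tissue difference can be taken within each kind and its change tested as an interaction in limma over the 12 arrays, with Benjamini-Hochberg adjustment over all genes. Of 19938 genes 1435 passed (7.2%), and of 33 named genes tested 5 did. That test takes the 3 arrays of a line as replicates, so it compares these 4 lines and not kinds of line.

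Slc16a3, the lactate exporter, was higher in AGM by 3.76 in the supportive pair and by 5.0 in the less-supportive pair, an interaction of -1.24 (adjusted p = 0.00236). Cd34 differed by -5.41 and -4.40 (interaction -1.01, adjusted p = 0.0136), and Mmp2 by -4.60 and -3.64 (-0.95, adjusted p = 0.0489), both wider in the supportive pair. Smim20 differed by -3.54 and -4.71 (interaction 1.17, adjusted p = 0.0161), and Epb41l4a by -3.92 and -4.64 (0.72, adjusted p = 0.00597), both wider in the less-supportive pair. The direction was the same in both pairs for all 5 genes, which is fixed by their choice among genes with all arrays separated. Only the size could differ.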

How the results depend on the processing

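The count of called genes (371) depended on how lines and arrays entered the fit. It was 123 over 6 line means with AFT024 and BFC012, 2916 with line as a random block (consensus correlation 0.208), 5505 with 12 independent arrays and 223 without the genes of the chromosome stretches, and 0 with the support label added, where 3583 genes had an unadjusted p under 0.05. It stayed within 1.5 times of the main count with trend and robust variances (514), quantile normalization (330), median centring (272), a filter on low genes (329), mean probe sets (378) and centring on neighbours (283). Leaving out a line gave 0 to 657 calls and 13938 to 15155 separated genes, and leaving out an array gave 273 to 460 and 8769 to 9813. Genes passing in all 4 line comparisons numbered 1279 to 1569 without 1 array, and kept calls 122 to 178. With genes above the median in their highest line 6069 were separated. Of 64 called named genes 0 remained called without UG26.3B5 or with the support label, 24 without UG26.1B6, 30 over 6 line means, 51 without BMC10, 60 without BMC9, 50 under median centring, 52 under quantile normalization and 60 after centring on neighbours. Only centring on neighbours turned a sign among the 167 named genes, in 5 that were not called: Col16a1 (-0.0191), Ifitm5 (0.069), Mir615 (0.0518), Mki67 (0.0085) and Vim (-0.168). The cause of these changes was not tested, beside the fewer lines or genes that some alternatives use.

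The replicate numbers did not pair arrays across tissues: same-numbered arrays of different tissues correlated at -0.387 to 0.397 in their deviations, and in 0 of 4 line pairs were all 3 above 0.1. Within a tissue they did go together, at 0.327 to 0.535 between the AGM lines and 0.116 to 0.435 between the BM lines. The arrays of the 2 lines of a tissue may thus not be independent, and the source was not tested. With the replicate number as a block over 12 arrays 5706 genes were called, beside 5505 without it, and 1642 passed in all 4 line comparisons, beside 1544.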

Other observations

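The genes that follow were picked because their values were seen, so they describe these lines and support nothing further. Amino acid transporters and stress-response genes were among the calls on the BM side. Slc7a11, the cystine importer, had line means of 5.78 and 6.10 in the AGM lines and 9.06 and 9.11 in the BM lines (-3.15, adjusted p = 0.0111 in limma). Slc6a9, a glycine transporter, differed by -2.10 (adjusted p = 0.0281), Slc7a5, an importer of large neutral amino acids, by -1.30 (0.0308) and Slc1a5, a glutamine transporter, by -1.07 (0.0431). Aldh1l2, a mitochondrial folate enzyme, differed by -2.48 (adjusted p = 0.0206), against the running median of its neighbours on chromosome 10 of 0.61. The regulators Atf4 (-0.39, adjusted p = 0.0975) and Ddit3 (0.10, 0.742) were not called. Slc7a5 lost its call after centring on neighbours (adjusted p = 0.0906). In the second set Slc7a11 was opposite, at 9.0 and 8.53 in the AM lines and 6.53 in 14F1-1. Slc6a9 (10.1, 9.45 and 10.43) and Slc1a5 (7.73, 9.68 and 10.04) kept their direction there. The AM lines lay on both sides of 14F1-1 for Slc7a5 and Aldh1l2.

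Genes of axon guidance were called in both directions. Besides Sema6d, the AGM lines were higher in Plxna4, a semaphorin receptor subunit, with line means of 8.88 and 9.16 against 6.48 and 6.50 (2.53, adjusted p = 0.0138), and in the co-receptors Nrp1 (1.13, 0.0206) and Nrp2 (0.88, 0.0409). Sema3a, a ligand of Nrp1, was higher in the BM lines, as given above. Among enzymes of oxidative defence, Nqo1 was higher in BM (-3.06, adjusted p = 0.0416, and 0.0783 after centring on neighbours) and Mgst1 higher in AGM (3.03, adjusted p = 0.0493), while Hmox1 (0.02) and Gclm (0.07) were not called. In the second set Nrp2 was opposite, at 8.97 and 8.58 in the AM lines and 11.64 in 14F1-1. Nqo1 (11.49, 11.48 and 10.65) and Mgst1 (9.65, 8.7 and 10.29) were opposite too. Plxna4 kept its direction at 7.09, 6.69 and 6.59, and the AM lines lay on both sides of 14F1-1 for Nrp1, Sema6d and Sema3a.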
